A study of Mus musculus with 12 samples.

Results

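The comparison described here is the difference in transgene response between 2 mouse models of cardiac NOTCH2NLC-(GGC)98 expression, gene by gene. For every gene the log2 fold change of EIIa-tg over EIIa-ctl hearts (the EIIa response) was subtracted from that of Myh6-tg over Myh6-ctl hearts (the Myh6 response). A positive difference therefore means a higher response in the Myh6 model, and a negative difference a lower response. All 12 of the 12 hearts in the count table entered, 3 in each of 4 groups, and 15929 of 25171 loci passed the filter on low counts and were tested. All mice carried a NOTCH2NLC gene with 98 GGC repeats behind a loxP-flanked stop cassette at Rosa26. EIIa-tg hearts came from mice in which EIIa-Cre, which acts in the early embryo, had removed the stop, and EIIa-ctl hearts from mice without EIIa-Cre, both at postnatal day 30. Myh6-tg hearts came from mice labelled as carrying Myh6-creERT2, a tamoxifen-dependent Cre driven by the cardiomyocyte myosin promoter, that were given 3 injections of tamoxifen (75 mg/kg) from day 60, and Myh6-ctl hearts from mice of the same labelled genotype given oil, both at day 90. Age, onset, the cells that express the transgene, the Cre allele and tamoxifen all change with the model, so their parts in any difference between models cannot be told apart. The Myh6 response also holds any effect of tamoxifen itself, since its controls received oil. The labels call the hearts of a group biological replicates, without saying which came from the same litter, and the genotype codes of EIIa-tg replicates 2 and 3 differ from that of replicate 1, although their titles give the same group.

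An expanded GGC repeat in NOTCH2NLC is translated into a polyglycine protein that forms intranuclear inclusions, the hallmark of neuronal intranuclear inclusion disease. The adult heart draws most of its energy from mitochondrial oxidation of fatty acids, and injured hearts commonly lower these genes, raise a fetal set of muscle genes and deposit collagen-rich matrix. That matrix is made by fibroblasts, which on activation secrete collagens, the lysyl oxidases that crosslink them, and matricellular proteins such as periostin, while chemokines draw monocytes and lymphocytes from the blood.

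The libraries held 38343106 to 50969834 counts, at which 3 counts equal 0.0568 to 0.0815 CPM (the count scaled to a common library size with TMM factors). These 3-count floors cover counting error only. Mitochondrially encoded transcripts made up 35.1% ± 1.36 (SD, n = 3) of all counts in the EIIa-ctl hearts and 30.7% ± 1.99 in the EIIa-tg hearts, against 35.9% ± 3.56 for Myh6-ctl and 17.3% ± 1.62 for Myh6-tg. Replicate 1 of every group had 4224 to 7307 counts over 4 Y-linked genes, and the other hearts had at most 2. Esr1 encodes an oestrogen receptor, and creERT2 carries the ligand-binding domain of such a receptor. Esr1 had a mean of 0.772 ± 0.419 CPM in the EIIa-ctl hearts, 0.958 ± 0.314 CPM in the EIIa-tg hearts, 1582 ± 672 CPM in the Myh6-ctl hearts, 1.61 ± 0.802 CPM in the Myh6-tg hearts (SD, n = 3). The Myh6-tg hearts were thus at the level of the EIIa hearts, although both Myh6 groups carry the same genotype label. Whether the Myh6-tg hearts hold the creERT2 allele was not tested, so the Myh6 response may compare hearts that differ in this allele as well as in treatment. Summed over 18 cardiomyocyte markers (among them Tnnt2, Myl2 and Ryr2), the level was 72716 to 85584 CPM in the EIIa-ctl hearts, 36161 to 62862 in EIIa-tg, 53984 to 74216 in Myh6-ctl and 16584 to 46255 in Myh6-tg, so all 12 libraries held abundant heart muscle RNA, as their tissue labels say, although the extraction note names brain. The transgene itself was not analysed here.

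The response differed between the models for 99 genes at the study's limits (adjusted p below 0.01 and a log2 difference of at least 1), which is 0.622% of the genes tested. It was higher in Myh6 for 45 of them (0.283%) and lower for 54 (0.339%). At adjusted p below 0.05 with no fold limit, the call used for gene lists in what follows, 624 genes differed (3.92%), 263 higher (1.65%) and 361 lower (2.27%). With the replicate number as a block in the Myh6 hearts, where same-numbered hearts deviated together, 257 genes passed the strict limits and 1210 the wider call, an alternative chosen after seeing the data. With a block within each model the counts were 34 and 505, and 27 of those 34 were among the 99. Single hearts moved these counts, from 11 strict calls without EIIa-ctl replicate 1 to 541 without Myh6-tg replicate 1, and all 99 genes were among those 541 with the same sign. Both of these hearts were the ones of their group with Y-linked counts. With a covariate for hearts with Y-linked counts, 138 genes passed the strict limits and 739 the wider call. The median difference over all genes was -0.04, and each response had a median of 0.03. The split of the wider calls turned with the scaling. Library totals in place of TMM factors gave 356 higher and 248 lower (58.9% higher, against 42.1%), and the median of all genes moved to 0.16. The deposited FPKM values gave 529 higher and 243 lower, with a median of 0.16 on the log2(FPKM + 1) scale. At the strict limits the FPKM values gave 91 higher and 45 lower (66.9% higher, against 45.5%), and DESeq2 gave 217 higher and 404 lower (34.9%).

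Taken alone at adjusted p below 0.05, the Myh6 response covered 5049 genes (31.7%), 2475 up (15.5%) and 2574 down (16.2%), and the EIIa response 227 genes (1.43%), 176 up (1.1%) and 51 down (0.32%). The EIIa count depended on the fit. A fit of the 6 EIIa hearts alone called 2527 genes, 1289 up and 1238 down, and a fit of the 6 Myh6 hearts alone called 2805. Among the 99 genes at the strict limits, 67 had fold changes of the same sign in both models, larger in Myh6, 32 had opposite signs, and 0 had a larger fold change of the same sign in EIIa (DESeq2 gave 6 of these among 621). Among the 624 genes of the wider call these numbers were 342, 277 and 5. Of the 277 with opposite signs, 246 had only the Myh6 response called, 11 only the EIIa response, 13 neither and 7 both. The models also shared genes. Of 162 genes called in both responses, 155 had the same sign (115 up and 40 down), and 18 of the 162 also had a called difference.

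**Figure D1:**
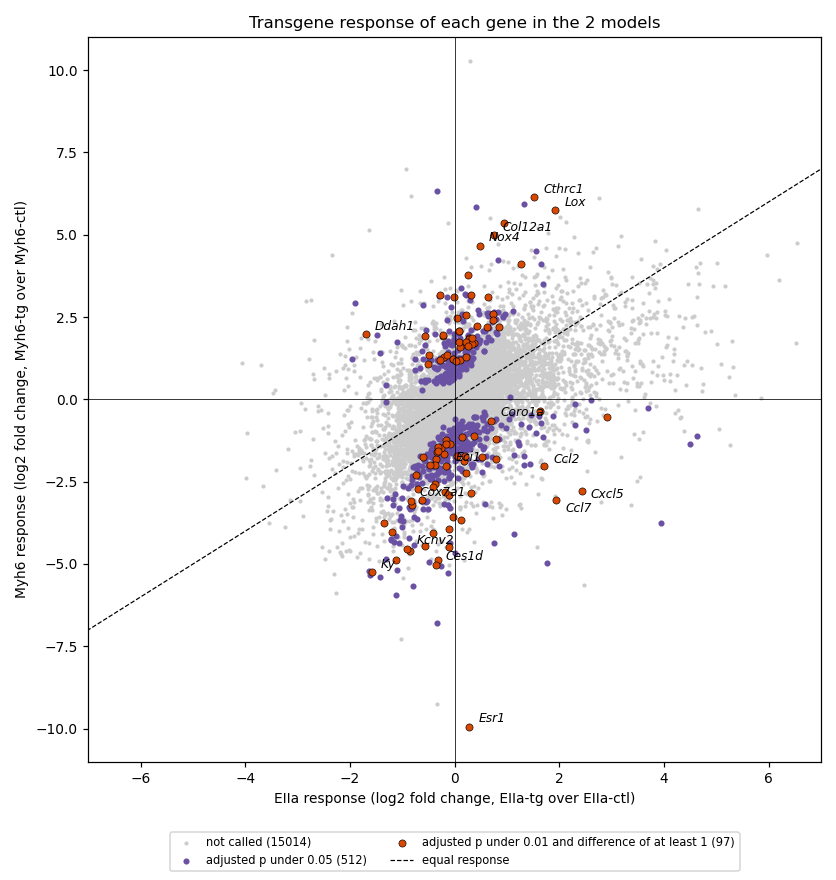
Each point is a gene, with its EIIa response on the x axis and its Myh6 response on the y axis, both as log2 fold changes of transgenic over control hearts from 1 fit of all 12 hearts, and the dashed line marks equal responses. Most of the 97 genes drawn at the strict limits and of the 512 others drawn at adjusted p below 0.05 spread further along the y axis than along the x axis, and a few, among them Ccl2, Ccl7, Cxcl5 and Ddah1, lie clearly in the quadrants of opposite sign. Another 306 genes with a group at 0 in all 3 hearts and 3 genes outside the axes are left out.

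Among the genes at the strict limits with a mean of at least 5 CPM, the 8 with the largest positive differences were Cthrc1, Ltbp2, Col12a1, Nox4, Lox, Ddah1, Wisp2 and Itgbl1. The 8 with the largest negative differences were Esr1, Ces1d, B3galt2, Efnb3, Fbp2, Mgl2, Ccl2 and Ky. Ces1d, a carboxylesterase that hydrolyses lipid esters, differed by -4.68 (SE 0.70, adjusted p = 0.00625), with responses of -0.35 in EIIa and -5.03 in Myh6. Efnb3, a membrane-bound ephrin ligand, differed by -3.90 (SE 0.34, adjusted p = 0.000343), and Mgl2, a lectin of macrophages and dendritic cells, by -3.78 (SE 0.47, adjusted p = 0.00238). B3galt2, a galactosyltransferase, differed by -4.57 (SE 0.55, adjusted p = 0.00238) and Ky, a muscle-specific peptidase-like protein, by -3.67 (SE 0.57, adjusted p = 0.00713). Both depended on the scale, since on log2(FPKM + 1) their differences were -0.74 and 0.12. The call of B3galt2 was lost in 1 of 27 alternatives, and that of Ky in 1, with its sign turned in 2 others. The positive set is mostly made of secreted matrix proteins, and the negative set mixes metabolic, muscle and immune genes.

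The 62 gene lists used here cover cardiac functions, stress pathways and cell types. Their median differences ran from -2.37 (adipocyte markers) to 2.95 (activated fibroblast markers), against -0.04 over all genes. Lists with the most called members were fatty acid uptake and oxidation with 14 lower of 32, activated fibroblast markers with 10 higher of 19, chemokines and their receptors with 8 lower of 41, matricellular proteins with 8 higher of 26 and elastic fibre genes with 7 higher and 1 lower of 16. In the background, 1.65% of genes were called higher and 2.27% lower. The lists were chosen with earlier results of these data known, so counts above this background are not independent evidence. When single hearts were left out, the calls in these lists ranged from 5 (without EIIa-ctl replicate 3) to 20 (without Myh6-tg replicate 1) for fatty acid genes and from 6 (without EIIa-ctl replicate 1) to 13 (without Myh6-tg replicate 1) for activated fibroblast markers. They ranged from 5 to 10 for chemokines, from 6 to 11 for matricellular proteins and from 3 to 10 higher for elastic fibres, with the most calls again without Myh6-tg replicate 1. Lists share some members, as Ltbp2 does for fibroblasts, elastic fibres and TGF-beta, and their genes are not independent.

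**Figure D2:**
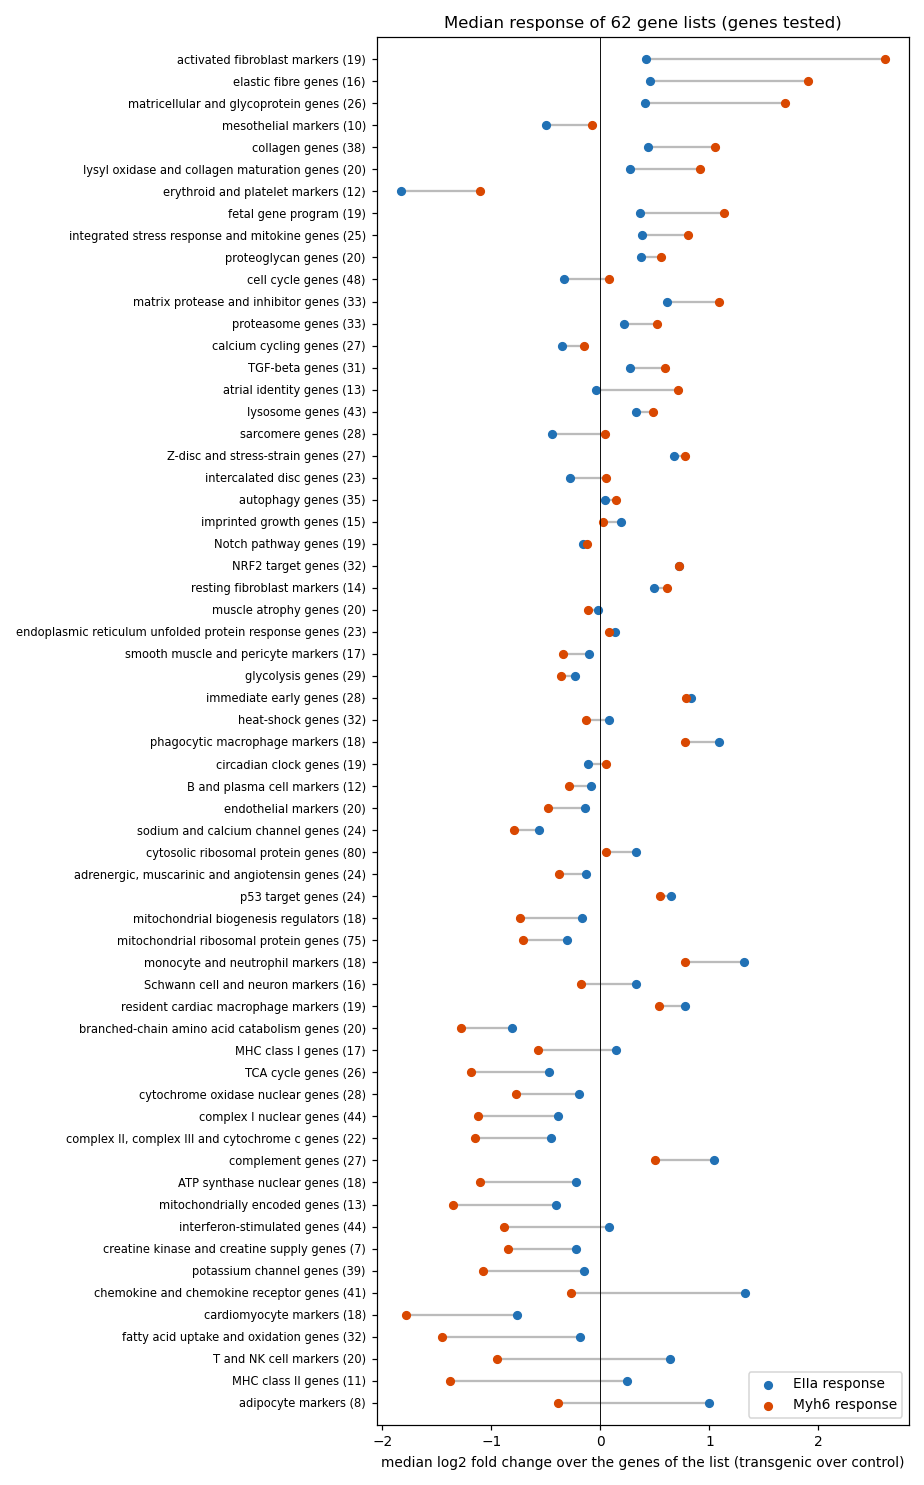
Median log2 fold change (transgenic over control) of each of 62 gene lists in the EIIa model (blue) and the Myh6 model (orange), ordered by the median of the per-gene differences, with the number of genes tested in brackets. Matrix and activated fibroblast lists stand at the top with orange to the right of blue, and fatty acid, chemokine, interferon and MHC class II lists stand low with orange to the left.

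Many matrix genes had a larger response in Myh6 than in EIIa. Of 38 collagen genes, 6 were called higher and 1 lower, and the median response was 0.44 in EIIa and 1.05 in Myh6. Col12a1 (chr9:79598991-79718831, GRCm38), a collagen that decorates the surface of fibrils, had 1.28, 1.30 and 1.28 CPM in the EIIa-ctl hearts, 1.70, 1.61 and 3.16 in EIIa-tg, 1.56, 1.40 and 3.07 in Myh6-ctl, and 30.9, 84.3 and 77.2 in Myh6-tg. Every Myh6-tg heart lay far above all other hearts, and the EIIa-tg hearts lay slightly above the EIIa-ctl hearts. The responses were 0.75 in EIIa and 4.98 in Myh6, a difference of 4.24 (SE 0.59, adjusted p = 0.00418). Col5a2, which nucleates fibrils, differed by 2.47 (SE 0.41, adjusted p = 0.00947), and Col8a1, a short-chain collagen, by 1.99 (SE 0.49, adjusted p = 0.0442). Col11a1, a minor fibrillar collagen, was listed at 0 in all 3 Myh6-ctl hearts and reached 0.137, 0.235 and 0.0815 CPM in the EIIa-ctl hearts, 0.247, 0.516 and 0.69 in EIIa-tg, 0, 0 and 0 in Myh6-ctl, and 4.59, 6.49 and 9.75 in Myh6-tg, so no fold is given (adjusted p of the difference = 0.00386). The basement membrane chains had a negative fold change in EIIa. Col4a2 (chr8:11312805-11449287) had 492, 534 and 422 CPM in the EIIa-ctl hearts, 267, 341 and 369.8 in EIIa-tg, 457, 226 and 239 in Myh6-ctl, and 1029, 1203 and 1230.5 in Myh6-tg. All 3 EIIa-tg hearts lay below all 3 EIIa-ctl hearts and all 3 Myh6-tg hearts above the Myh6-ctl hearts, although the EIIa response of -0.57 was not called (adjusted p = 0.22). The difference was 2.48 (SE 0.36, adjusted p = 0.00542), and that of its partner Col4a1 was 2.09 (SE 0.40, adjusted p = 0.0153). Col6a6, a chain of the microfibrillar collagen VI, went the other way, with responses of -0.09 in EIIa and -3.29 in Myh6 and a difference of -3.20 (SE 0.55, adjusted p = 0.0102).

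The enzymes that crosslink these fibres differed as well, with 3 of 20 lysyl oxidase and collagen maturation genes higher and 0 lower. Lox, which oxidises lysines of collagen and elastin, had 7.17, 4.27 and 6.17 CPM in the EIIa-ctl hearts, 23.3, 12.97 and 30.6 in EIIa-tg, 9.12, 11.9 and 10.6 in Myh6-ctl, and 459.9, 589.6 and 645 in Myh6-tg. The EIIa-tg hearts lay above every control heart, and the Myh6-tg hearts lay far above those. The responses were 1.92 in EIIa and 5.74 in Myh6, and the difference was 3.82 (SE 0.41, adjusted p = 0.0015). The related Loxl3 and Loxl1 had differences of 2.86 (SE 0.35, adjusted p = 0.00238) and 1.26 (SE 0.32, adjusted p = 0.0474), and the call of Loxl1 was lost in 16 of 27 alternatives.

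Elastic fibre genes had median responses of 0.46 in EIIa and 1.90 in Myh6. Fbln5, which links elastin to microfibrils, had 40.0, 47.5 and 40.0 CPM in the EIIa-ctl hearts, 41.7, 44.9 and 48.9 in EIIa-tg, 59.7, 39.9 and 52.0 in Myh6-ctl, and 149.8, 169 and 194 in Myh6-tg. The EIIa groups overlapped, and all Myh6-tg hearts exceeded every other heart, with a difference of 1.67 (SE 0.23, adjusted p = 0.00416). Elastin itself (Eln) had responses of 0.30 in EIIa and 3.01 in Myh6 and a difference of 2.71 (SE 0.51, adjusted p = 0.014). Ltbp2 (chr12:84783212-84876532), a microfibril protein of the latent TGF-beta binding family, had 2.73, 4.66 and 2.55 CPM in the EIIa-ctl hearts, 3.25, 5.24 and 10.5 in EIIa-tg, 3.71, 4.14 and 4.99 in Myh6-ctl, and 103, 174 and 252 in Myh6-tg. The other 3 groups overlapped while every Myh6-tg heart stood far above them, and the difference was 4.43 (SE 0.60, adjusted p = 0.00389). Mfap2, Mfap4, Fbln2 and Loxl1 completed the 7 higher members, with differences of 1.59, 2.46, 1.18 and 1.26. The exception was Efemp1 (chr11:28853204-28926743), a fibulin of the extracellular matrix, which had 7.24, 6.72 and 6.31 CPM in the EIIa-ctl hearts, 11.96, 4.97 and 8.33 in EIIa-tg, 16.4, 9.87 and 14.3 in Myh6-ctl, and 2.01, 2.00 and 1.65 in Myh6-tg. The Myh6-tg hearts lay below all others while the EIIa groups overlapped, and the difference was -3.16 (SE 0.41, adjusted p = 0.00336).

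Matricellular proteins, secreted regulators that are not structural, had 8 higher and 0 lower of 26. Cthrc1 (chr15:39076932-39087121), a glycoprotein of activated fibroblasts, had 0.137, 0.391 and 0.381 CPM in the EIIa-ctl hearts, 0.838, 0.755 and 0.98 in EIIa-tg, 0.158, 0.466 and 0.19 in Myh6-ctl, and 8.50, 23.998 and 24.001 in Myh6-tg. Both transgenic groups lay above their own controls without overlap, at very different levels, with responses of 1.51 in EIIa and 6.13 in Myh6 and a difference of 4.62 (SE 0.74, adjusted p = 0.00862). Postn, periostin, had 50.2, 91.4 and 50.3 CPM in the EIIa-ctl hearts, 59.4, 128 and 152 in EIIa-tg, 54.9, 78.0 and 125 in Myh6-ctl, and 733, 2064 and 2036 in Myh6-tg, and its EIIa groups overlapped while the Myh6 groups did not. Its difference was 3.40 (SE 0.66, adjusted p = 0.0154). The CCN family genes Wisp2 and Wisp1 differed by 3.53 (SE 0.58, adjusted p = 0.00925) and 3.47 (SE 0.52, adjusted p = 0.00611), and the antiangiogenic Thbs2 by 1.86 (SE 0.27, adjusted p = 0.00582). Comp and Thbs4, pentameric thrombospondins, had Myh6 responses of 5.84 and 5.92 and EIIa responses of 0.40 and 1.33.

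Nox4 (chr7:87246096-87398710), an NADPH oxidase that makes hydrogen peroxide, had 1.84, 1.41 and 1.47 CPM in the EIIa-ctl hearts, 1.53, 2.36 and 2.70 in EIIa-tg, 1.65, 1.97 and 2.54 in Myh6-ctl, and 52.1, 43.2 and 62.5 in Myh6-tg. The other 3 groups overlapped, and every Myh6-tg heart lay far above them. The responses were 0.48 in EIIa and 4.67 in Myh6 and the difference was 4.19 (SE 0.35, adjusted p = 0.000327). Of 31 TGF-beta genes only 3 were called, all higher, namely Ltbp2, the activin inhibitor Fstl3 (1.82, SE 0.44, adjusted p = 0.0422) and the ligand Bmp4 (1.43, SE 0.33, adjusted p = 0.0325), and the list had a median difference of 0.26. Among 33 matrix proteases and inhibitors 2 were higher, the aggrecanases Adamts5 (1.20, SE 0.29, adjusted p = 0.0429) and Adamts8 (2.83, SE 0.62, adjusted p = 0.0267), the latter with responses of -1.43 in EIIa and 1.40 in Myh6. Of 20 proteoglycan genes 0 were higher and 1 was lower, Podn (-1.41, SE 0.34, adjusted p = 0.0391), a call that 15 of 27 alternatives lost, while 8 had unadjusted p below 0.05. DESeq2 called 8 of them, 6 higher and 2 lower.

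Markers of activated fibroblasts, most of whose called members are matrix genes named above, had a higher response in Myh6 as well. Their summed level over 19 markers was 374 to 660.2 CPM in the EIIa-ctl hearts, 409 to 709 in EIIa-tg, 428 to 594 in Myh6-ctl and 2233 to 6475 in Myh6-tg, where replicate 1 was the lowest. Markers of resting fibroblasts, 14 genes, summed to 2544 to 3059.8, 3582 to 4793, 2671 to 3551 and 2632 to 5424 CPM in the same order, with a median difference of -0.01 that was positive or negative depending on the setting. Only Scara5 of these was called (-1.32, SE 0.28, adjusted p = 0.022). Because of this overlap, their called members are not evidence separate from the matrix lists. In bulk tissue more cells of a type and more RNA per cell cannot be told apart. The part of fibroblast number in the matrix differences was not tested.

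**Figure D3:**
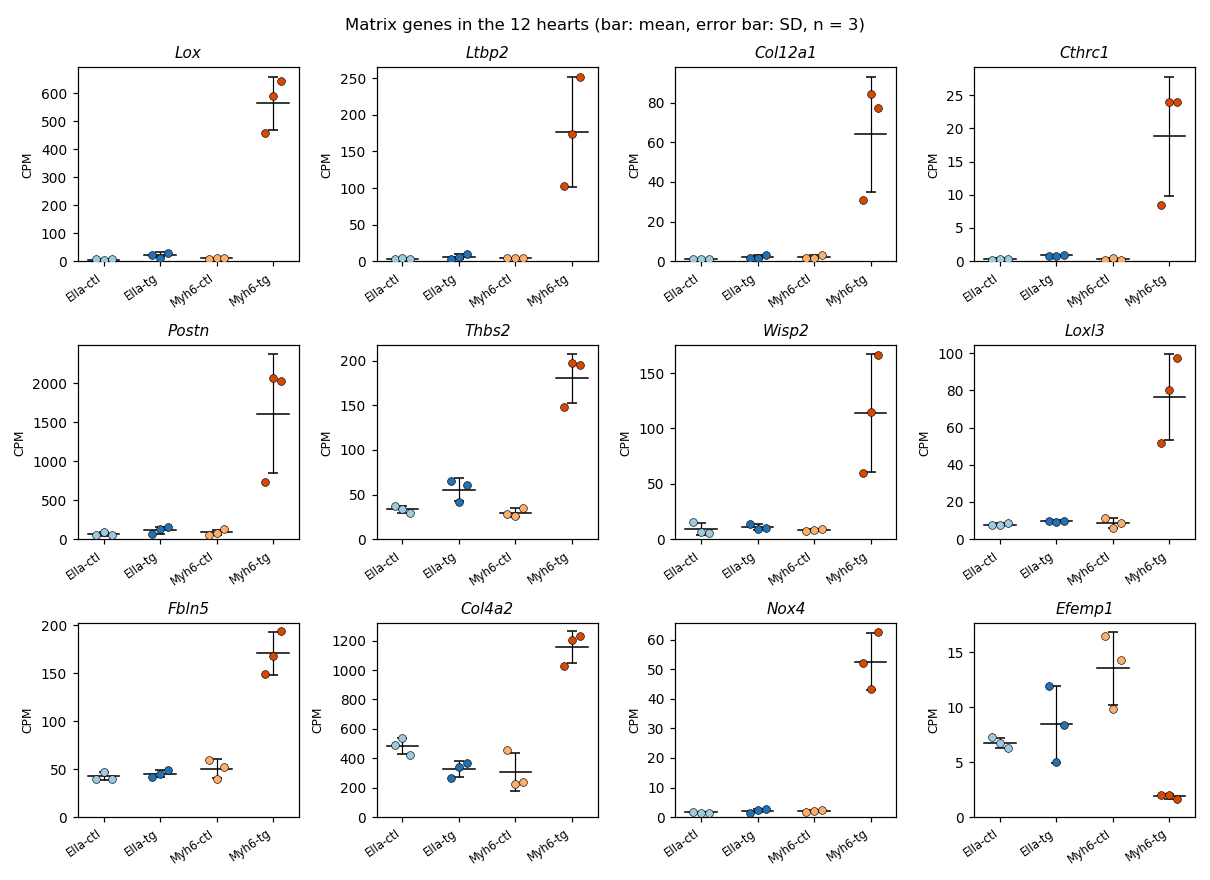
Level of 12 matrix genes in CPM (y axis, linear from 0) in the 4 groups of hearts, with 1 point per heart, a bar at the mean and an error bar of 1 SD (n = 3). In 11 panels the Myh6-tg hearts stand above all others, with Lox at 460 to 645 CPM and Nox4 at 43.2 to 62.5, and in the Efemp1 panel they stand below all others.

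Genes of fatty acid uptake and oxidation were the list with the most called members, all of them lower in Myh6. Of 32 such genes 14 were called lower and 0 higher, 30 had a negative difference, and the median response was -0.19 in EIIa and -1.45 in Myh6. Eci1 (chr17:24426641-24439348), an isomerase that prepares unsaturated fatty acids for oxidation, had 243, 209 and 226 CPM in the EIIa-ctl hearts, 223, 203 and 182 in EIIa-tg, 198, 204 and 129 in Myh6-ctl, and 44.8, 49.2 and 37.6 in Myh6-tg. The Myh6-tg hearts lay below every other heart, and the EIIa groups overlapped. The responses were -0.16 in EIIa and -2.01 in Myh6, a difference of -1.85 (SE 0.26, adjusted p = 0.00416). Cpt1b (chr15:89416405-89425863), the muscle carnitine palmitoyltransferase that admits long-chain fatty acids to mitochondria, had 560.1, 514 and 506 CPM in the EIIa-ctl hearts, 672, 508 and 554 in EIIa-tg, 503, 499.9 and 419.8 in Myh6-ctl, and 227, 214 and 201 in Myh6-tg. The EIIa groups overlapped and the Myh6-tg hearts lay below all others, with a difference of -1.28 (SE 0.21, adjusted p = 0.00947). Decr1, which handles polyunsaturated chains, differed by -1.65 (SE 0.28, adjusted p = 0.0107). The other 11 called members span the pathway from entry to the last step, with differences of -1.22 for the fatty acid transporter Slc27a1, -1.26 for the acyl-CoA synthetase Acsl1 and -1.40 for the inner-membrane transferase Cpt2. The dehydrogenases and thiolases of the spiral were called as well, Acadvl with -1.51, Hadha with -1.38, Hadhb with -1.47, Hadh with -1.51, Acaa2 with -1.61 and Acat1 with -1.53. Etfb, which passes electrons from these dehydrogenases, had -1.38 and Mlycd, which removes the inhibitor malonyl-CoA, had -1.36. Cardiomyocyte markers had a negative median response in both models and a median difference of -1.15 (-1.39 to -0.68 over the alternatives). The difference was negative in 11 of 18, and 9 had unadjusted p below 0.05. The summed level of the 18 markers given above was lower in Myh6-tg than in Myh6-ctl and lower in EIIa-tg than in EIIa-ctl, both without overlap, and their median responses were -1.78 in Myh6 and -0.76 in EIIa. The part of cardiomyocyte RNA content in the energy differences was not tested.

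Regulators of mitochondrial number had 2 of 18 called lower. Ppargc1a (chr5:51454250-51567726), the coactivator PGC-1alpha that drives mitochondrial biogenesis, had 63.0, 41.8 and 54.8 CPM in the EIIa-ctl hearts, 57.5, 43.2 and 47.8 in EIIa-tg, 66.1, 96.5 and 143 in Myh6-ctl, and 26.4, 17.4 and 14.6 in Myh6-tg. The EIIa groups overlapped and the Myh6-tg hearts lay below all others, with responses of -0.11 in EIIa and -2.39 in Myh6 and a difference of -2.28 (SE 0.40, adjusted p = 0.0112). Perm1, a muscle regulator acting with it, differed by -1.86 (SE 0.35, adjusted p = 0.0134).

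Respiratory chain genes leaned the same way with few members called by edgeR. The median difference was -0.75 over 44 nuclear genes of complex I, -0.76 over 22 of complexes II and III and cytochrome c, -0.66 over 28 of cytochrome oxidase and -0.88 over 18 of ATP synthase. Called members were 1, 0, 2 and 1, all lower. The calls of Ndufaf4 in complex I and Usmg5 in ATP synthase were lost in 14 and 15 of 27 alternatives. Differences were negative for 43 of 44, 22 of 22, 25 of 28 and 18 of 18 of these genes, against 8423 of all 15929. In the same list order, 24, 11, 11 and 13 genes had unadjusted p below 0.05, and DESeq2 called 8, 1, 7 and 4, all lower. Cox7a1 (chr7:30184144-30186078), the heart and muscle isoform of an oxidase subunit, had 62.5, 69.4 and 75.2 CPM in the EIIa-ctl hearts, 37.2, 50.8 and 27.6 in EIIa-tg, 56.7, 79.8 and 39.4 in Myh6-ctl, and 6.83, 7.79 and 6.21 in Myh6-tg. Both transgenic groups lay below their controls without overlap, the Myh6-tg hearts much further, with responses of -0.84 in EIIa and -3.08 in Myh6 and a difference of -2.24 (SE 0.36, adjusted p = 0.0089). The other muscle isoform called, Cox8b, had -1.93 (SE 0.37, adjusted p = 0.0152). For the ubiquitous oxidase subunits Cox4i1 and Cox5a and the complex III gene Cyc1 the differences were -0.96, -0.78 and -0.76. None was called, with adjusted p of 0.166, 0.286 and 0.278.

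All 13 genes of the mitochondrial genome had negative differences, with median responses of -0.41 in EIIa and -1.35 in Myh6. Only mt-Nd3, a complex I subunit, was called (11 had unadjusted p below 0.05, and DESeq2 called 10). It had 641, 681 and 743 CPM in the EIIa-ctl hearts, 622, 533 and 437 in EIIa-tg, 905, 990.2 and 681 in Myh6-ctl, and 201, 290.4 and 208 in Myh6-tg, with no overlap between either transgenic group and its control, and a difference of -1.50 (SE 0.29, adjusted p = 0.0152), a call lost without EIIa-ctl replicate 1 (adjusted p = 0.0501). These genes supply a large share of each library, and the share moved with the group as given above. Without them in the table the strict count was 117. Of 26 citric acid cycle genes Suclg2 alone was called, at -1.29, and of 75 mitochondrial ribosomal protein genes Mrpl18 alone, at -1.10, while 66 of the 75 had a negative difference. Hspd1 (chr1:55077835-55088243), the mitochondrial chaperonin, had 397, 352 and 367 CPM in the EIIa-ctl hearts, 313, 317 and 251 in EIIa-tg, 370.3, 325 and 314 in Myh6-ctl, and 106, 121 and 105 in Myh6-tg. Each transgenic group lay below its control without overlap, and the Myh6-tg hearts lay lowest of all 12. Its difference was -1.26 (SE 0.20, adjusted p = 0.00785), and it was the only one of 32 heat-shock genes called. Glycolysis genes had a median difference of -0.07 whose sign turned in 7 of 27 settings, and 1 of 29 was called, the glucose transporter Slc2a1 (1.28, SE 0.29, adjusted p = 0.0312).

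**Figure D4:**
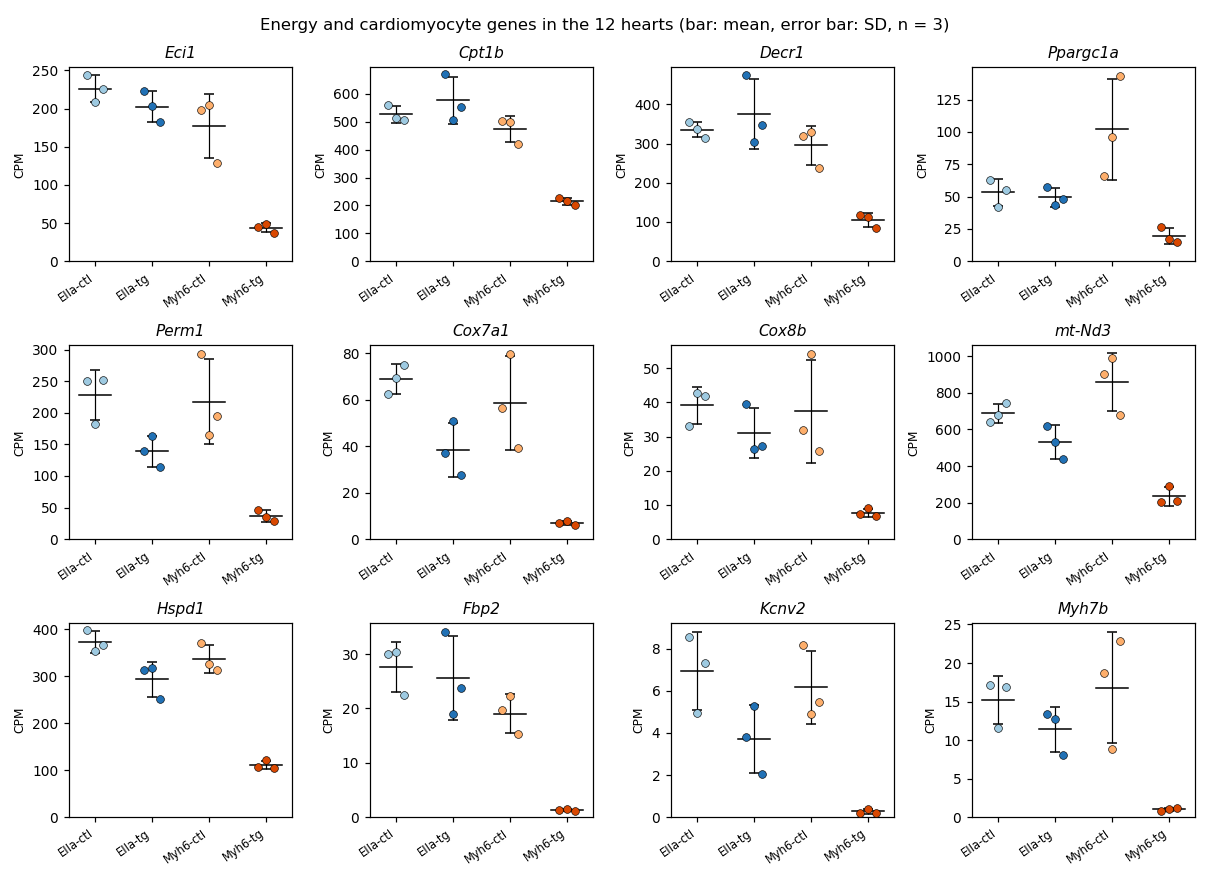
Level of 12 energy and cardiomyocyte genes in CPM (y axis, linear from 0) in the 4 groups, with 1 point per heart, a bar at the mean and an error bar of 1 SD (n = 3). In every panel the 3 Myh6-tg hearts are the lowest of their model, for Eci1 at 37.6 to 49.2 CPM against 129 to 243 in all other hearts.

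Few heart muscle genes were called by edgeR with all 12 hearts. Among 18 cardiomyocyte markers 1 was called lower, the oxygen store Mb (-1.76, SE 0.44, adjusted p = 0.0459), a call that 12 of 27 alternatives lost. DESeq2 called 6 of the 18, all lower, and 10 were called lower without Myh6-tg replicate 1. Of 28 sarcomere genes 1 was called, Myh7b, while DESeq2 called 8, of which 2 were higher. Without Myh6-tg replicate 1, 11 sarcomere genes were called lower. The sarcomere median of 0.19 ran from -0.71 without that heart to 0.47 without Myh6-tg replicate 3. Myh7b, a minor myosin heavy chain, had 17.1, 11.6 and 16.9 CPM in the EIIa-ctl hearts, 13.4, 12.7 and 8.04 in EIIa-tg, 18.7, 8.88 and 22.9 in Myh6-ctl, and 0.79, 1.08 and 1.12 in Myh6-tg. The EIIa groups overlapped and the Myh6-tg hearts lay far below all others, a difference of -3.65 (SE 0.47, adjusted p = 0.00311). The main heavy chain Myh6 had responses of -1.34 in EIIa and -2.60 in Myh6, with an interval of -2.95 to 0.44 for the difference, and the fetal heavy chain Myh7 1.87 in EIIa and 0.60 in Myh6, with an interval of -3.86 to 1.31. The natriuretic peptide genes Nppa and Nppb had responses of 1.47 in EIIa and 2.51 in Myh6, and of 0.92 in EIIa and 1.20 in Myh6, with intervals of -0.93 to 3.02 and -1.24 to 1.80 for the differences, so neither the same nor a different response can be told from these hearts. Actn1, the non-muscle alpha-actinin of the fetal program, had 25.4, 29.8 and 32.0 CPM in the EIIa-ctl hearts, 25.5, 29.6 and 37.0 in EIIa-tg, 29.6, 25.5 and 35.5 in Myh6-ctl, and 130.5, 127 and 129 in Myh6-tg. The other 3 groups overlapped and the Myh6-tg hearts lay above them, with a difference of 2.01 (SE 0.23, adjusted p = 0.00236). Fbp2 (chr13:62836877-62858422), the muscle fructose bisphosphatase, had 30.1, 30.4 and 22.4 CPM in the EIIa-ctl hearts, 34.0, 18.9 and 23.8 in EIIa-tg, 19.7, 22.2 and 15.2 in Myh6-ctl, and 1.22, 1.41 and 1.14 in Myh6-tg. The EIIa groups overlapped and the Myh6-tg hearts were the lowest by far, with a difference of -3.81 (SE 0.33, adjusted p = 0.000343). Rpl3l, a striated-muscle form of ribosomal protein L3, was the only one of 80 cytosolic ribosomal protein genes called, with responses of -1.17 in EIIa and -4.32 in Myh6 and a difference of -3.15 (SE 0.55, adjusted p = 0.0112).

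Potassium channels had 4 of 39 members lower and 0 higher, with a median difference of -0.98. DESeq2 called 6, all lower. With single hearts left out, the lower calls ranged from 2 (without EIIa-ctl replicate 2) to 16 (without Myh6-tg replicate 1). Kcnv2 (chr19:27322588-27337179), a silent subunit that modifies Kv channels, had 8.56, 4.95 and 7.34 CPM in the EIIa-ctl hearts, 3.80, 5.26 and 2.05 in EIIa-tg, 8.17, 4.89 and 5.47 in Myh6-ctl, and 0.214, 0.391 and 0.189 in Myh6-tg. The EIIa groups overlapped, the Myh6-tg hearts lay far below all others, and the difference was -3.63 (SE 0.57, adjusted p = 0.00739). On log2(FPKM + 1) it was -0.60 and was not called. Kcnj2, the inward rectifier that sets the resting potential, differed by -1.93 (SE 0.41, adjusted p = 0.0219), the acetylcholine-gated Kcnj3 by -2.81 (SE 0.55, adjusted p = 0.0158), and Abcc9, the receptor subunit of the KATP channel, by -1.27 (SE 0.26, adjusted p = 0.0189). Of 24 sodium and calcium channel genes 0 were called by edgeR (5 had unadjusted p below 0.05, and DESeq2 called 4). Scn4b, the beta-4 subunit of the sodium channel, had responses of -2.49 in EIIa and -4.86 in Myh6 and a difference of -2.37 (SE 0.69, adjusted p = 0.0813). Among 24 adrenergic, muscarinic and angiotensin genes the converting enzyme Ace was higher (1.81, SE 0.30, adjusted p = 0.00909) and the alpha-1B receptor Adra1b lower (-1.61, SE 0.29, adjusted p = 0.0123).

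Of 41 chemokine and chemokine receptor genes, 33 had a fold change above 0 in EIIa, against 8452 of all 15929 genes. In Myh6, 24 had one below 0, against 7682 of all 15929. The Myh6 response itself was called down for 9 of them and up for 4 at adjusted p below 0.05. The difference was called lower for 8 and higher for 0, and the median response was 1.33 in EIIa and -0.27 in Myh6. Ccl2 (chr11:82035571-82037453), the main attractant of monocytes, had 1.43, 4.38 and 1.39 CPM in the EIIa-ctl hearts, 10.8, 4.91 and 7.84 in EIIa-tg, 7.69, 9.32 and 6.89 in Myh6-ctl, and 1.58, 1.82 and 2.48 in Myh6-tg. The EIIa-tg hearts lay above the EIIa-ctl hearts and the Myh6-tg hearts below the Myh6-ctl hearts, both without overlap, and the difference was -3.73 (SE 0.62, adjusted p = 0.00954). Ccl7 (chr11:82045712-82047525), a neighbouring gene with the same receptor, had 1.14, 2.68 and 1.77 CPM in the EIIa-ctl hearts, 11.5, 4.85 and 5.12 in EIIa-tg, 7.85, 6.65 and 7.53 in Myh6-ctl, and 0.256, 1.11 and 1.29 in Myh6-tg. The groups separated as for Ccl2, and the difference was -4.99 (SE 0.75, adjusted p = 0.00611). Cxcl5, an attractant of neutrophils, had 0.478, 0.86 and 0.761 CPM in the EIIa-ctl hearts, 4.07, 2.19 and 5.01 in EIIa-tg, 1.22, 3.63 and 1.04 in Myh6-ctl, and 0.256, 0.239 and 0.341 in Myh6-tg. The EIIa-tg hearts lay above the EIIa-ctl hearts, and the Myh6-tg hearts lay below all others. It was called in both responses (2.42 in EIIa and -2.80 in Myh6), with a difference of -5.22 (SE 0.76, adjusted p = 0.00529). Ccl11, Ccl12 and Ccl8 also had opposite signs, with differences of -6.73, -3.04 and -3.97, whereas the interferon-induced Cxcl9 had a negative response in both models (-1.18 in EIIa and -3.22 in Myh6). Cxcr6, a receptor of resident T cells, had responses of 3.78 in EIIa and 4.06 in Myh6 and an interval of -2.13 to 2.69 for the difference.

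The control hearts of the models were not at the same level in these genes, a comparison given without a test. The median log2 ratio of Myh6-ctl over EIIa-ctl hearts was 1.03 over the chemokine list, 0.97 over complement genes, 0.84 over resident macrophage markers and 0.09 over interferon-stimulated genes, against 0.02 over all genes. The ratio of Myh6-tg over EIIa-tg hearts was -0.34 over the chemokine list. As the values of Ccl2 and Ccl7 show, the Myh6-ctl hearts lay near the EIIa-tg hearts and the Myh6-tg hearts near or below the EIIa-ctl hearts. Control hearts differed in age and in oil injection along with the model, and these cannot be told apart.

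Of 7 genes whose responses were each called with opposite signs, 4 had a mean of at least 5 CPM, and 3 of those are genes of white blood cells. Coro1a (chr7:126699773-126707787), a leukocyte actin regulator, had 17.1, 18.2 and 15.3 CPM in the EIIa-ctl hearts, 27.6, 25.1 and 29.3 in EIIa-tg, 23.2, 25.8 and 31.4 in Myh6-ctl, and 16.9, 18.1 and 15.9 in Myh6-tg. EIIa-tg and Myh6-ctl shared a high level and EIIa-ctl and Myh6-tg a low one, with no overlap within either model. The responses were 0.70 in EIIa and -0.66 in Myh6, and the difference was -1.36 (SE 0.20, adjusted p = 0.00611). Myo1f, an unconventional myosin of myeloid cells, differed by -2.02 (SE 0.34, adjusted p = 0.0102), and Cd72, a B cell coreceptor, by -2.24 (SE 0.41, adjusted p = 0.0128). Each of these 3 calls was lost under 1 alternative, with adjusted p of 0.0534, 0.0583 and 0.0504. The other 3 of the 7, Cxcl5, Robo3 and an unannotated locus, were below 5 CPM. Ddah1 (chr3:145758675-145894277), which degrades an inhibitor of nitric oxide synthase, was the remaining gene. It had 8.20, 5.78 and 6.79 CPM in the EIIa-ctl hearts, 2.00, 2.98 and 1.40 in EIIa-tg, 5.43, 5.52 and 5.35 in Myh6-ctl, and 16.2, 22.2 and 25.7 in Myh6-tg. The Myh6-ctl hearts lay just below the EIIa-ctl hearts, every EIIa-tg heart lay below all controls and every Myh6-tg heart above them. The responses were -1.70 in EIIa and 1.97 in Myh6, and the difference was 3.67 (SE 0.37, adjusted p = 0.00114).

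**Figure D5:**
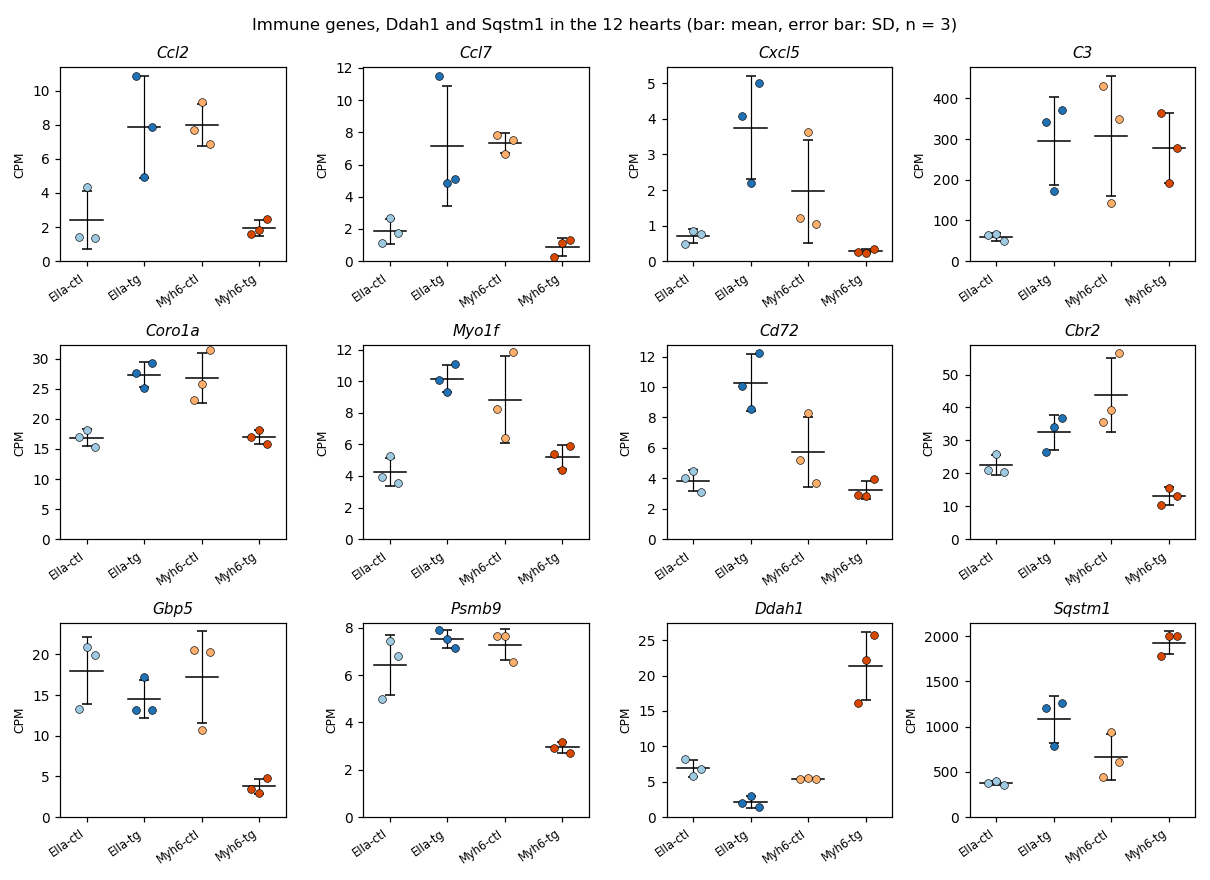
Level of 10 immune genes, Ddah1 and Sqstm1 in CPM (y axis, linear from 0) in the 4 groups, with 1 point per heart, a bar at the mean and an error bar of 1 SD (n = 3). For Ccl2, Ccl7 and Coro1a the EIIa-tg and Myh6-ctl hearts are high and the EIIa-ctl and Myh6-tg hearts low, for Ddah1 the EIIa-tg hearts are below and the Myh6-tg hearts above all controls, and Sqstm1 rises in both models.

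Antigen presentation and interferon genes had small median EIIa responses and negative median Myh6 responses. Of 44 interferon-stimulated genes 6 were called lower (17 with DESeq2, 0 on log2(FPKM + 1) without a filter), and all 44 had a negative difference, with medians of 0.08 in EIIa and -0.88 in Myh6. Among the called members, the guanylate-binding protein Gbp5 had 13.2, 20.8 and 19.9 CPM in the EIIa-ctl hearts, 13.2, 17.3 and 13.1 in EIIa-tg, 20.6, 10.7 and 20.3 in Myh6-ctl, and 3.48, 2.99 and 4.81 in Myh6-tg. The other 3 groups overlapped, and every Myh6-tg heart was lower, with a difference of -1.88 (SE 0.39, adjusted p = 0.0209). Differences were also called for Gbp6 (-2.26), a gene of the same family, the ligase Herc6 (-1.30), the antiviral Ifit3b (-1.56) and the synthetase Oas2 (-1.56). All 17 genes of MHC class I presentation, which include class I molecules and the transporters and proteasome subunits that supply their peptides, had a negative difference. No class I molecule was called, and the 2 called members were the immunoproteasome subunits Psmb9 (-1.53, SE 0.27, adjusted p = 0.0112) and Psmb8 (-1.28, SE 0.23, adjusted p = 0.0118). The 11 MHC class II genes had a median difference of -1.57, but edgeR called 0 (8 had unadjusted p below 0.05, and DESeq2 called 4).

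Markers of immune cells gave a mixed picture. Of 19 resident macrophage markers 3 were called lower and 0 higher. Cbr2 (chr11:120729489-120732114), a carbonyl reductase of resident macrophages, had 20.9, 25.9 and 20.5 CPM in the EIIa-ctl hearts, 26.4, 34.1 and 36.7 in EIIa-tg, 35.6, 39.3 and 56.5 in Myh6-ctl, and 10.2, 15.7 and 13.2 in Myh6-tg. The EIIa-tg hearts lay above the EIIa-ctl hearts, and the Myh6-tg hearts lay below all others. The difference was -2.28 (SE 0.31, adjusted p = 0.00386), while Adgre1, which encodes F4/80, and the folate receptor Folr2 had -1.64 (SE 0.37, adjusted p = 0.0289) and -1.57 (SE 0.34, adjusted p = 0.024). The summed level of the 19 markers was nevertheless highest in Myh6-tg, at 1301 to 2079.5 CPM, against 995 to 1446 in Myh6-ctl, 964 to 1209 in EIIa-tg and 627 to 793 in EIIa-ctl. Of 20 T and NK cell markers edgeR called 0 (2 had unadjusted p below 0.05, and DESeq2 called 1). Their median response was 0.64 in EIIa and -0.95 in Myh6, and 18 of the 20 had a negative difference. The sum over all 21 listed markers in the table was 10.5 to 13.3, 16.4 to 20.4, 10.5 to 22.2 and 23.3 to 33.4 CPM in EIIa-ctl, EIIa-tg, Myh6-ctl and Myh6-tg, with Cxcr6 as its largest member in Myh6-tg. Markers of red cells and platelets, 12 genes, summed to 1557 to 2628, 227 to 1296, 5251 to 8175 and 1880.4 to 3467 CPM in the same order. The part of blood and of immune cell number in the immune differences was not tested.

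Among the 624 genes with a called difference, 16 had a response called in EIIa and not in Myh6, of which 11 had opposite signs and 5 the same sign. Over all genes, the EIIa response was called for 1.43% and the Myh6 response for 31.7%. The EIIa calls depended on the fit, as given above, so this set does too. The 12 of them with an annotated symbol and counts in all 4 groups are described here, chosen after their values had been seen. Complement C3, the central component of the cascade, had 64.6, 66.0 and 48.8 CPM in the EIIa-ctl hearts, 342, 171 and 371 in EIIa-tg, 430.1, 143 and 349 in Myh6-ctl, and 364, 192 and 278 in Myh6-tg. The EIIa-ctl hearts stood alone at a low level and the other 3 groups overlapped. The difference was -2.45 (SE 0.55, adjusted p = 0.0301), a call that 12 of 27 alternatives lost. The lysozyme Lyz1 (-3.44), the B cell adaptor Blnk (-1.94), the oxysterol enzyme Ch25h (-2.62), Ms4a4c (-3.08) and Ccl8 had the same form, with EIIa responses of 2.91, 1.46, 2.61, 2.29 and 3.69. The formyl peptide receptor Fpr1 had at most 3 counts in each EIIa-ctl heart, so its fold is not given. Aldh1a2, which makes retinoic acid, had responses of 1.65 in EIIa and -0.71 in Myh6, and Cyp2b10, a drug-inducible cytochrome P450, 4.49 in EIIa and -1.35 in Myh6. Nfkb2, a subunit of NF-kappaB, had 1.05 in EIIa and 0.07 in Myh6. Only Gadd45a, a growth arrest gene, and the integrin Itga9 had a negative EIIa response, of -1.30 and -1.31, beside Myh6 responses of 0.45 and -0.09.

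Protein quality control lists had at most 4 called members each, but their shares differed. The share called was 12.1% of proteasome genes, 9.38% of NRF2 targets and 9.3% of lysosome genes, against 3.92% of all genes. It was at most 4% in the integrated stress response, endoplasmic reticulum stress, autophagy and heat-shock lists. Of 33 proteasome genes 4 were called higher and 0 lower (0 higher without EIIa-ctl replicate 1), Psmc4, Psmd1, Psmd8 and Psmd14, all of the regulatory particle, with differences of 1.11, 0.72, 1.25 and 0.81. Of 43 lysosome genes 3 were higher, the protease Ctsl (1.18, SE 0.24, adjusted p = 0.0192) and the proton pump subunits Atp6v1h (0.90) and Atp6v1b2 (0.82), and Ctsc was lower (-1.21). The NRF2 targets, which answer oxidative and electrophilic stress, had a median response of 0.72 in EIIa and 0.72 in Myh6. Both subunits of the enzyme that limits glutathione synthesis were higher in Myh6, Gclc with 1.59 (SE 0.32, adjusted p = 0.019) and Gclm with 1.25 (SE 0.23, adjusted p = 0.0134), and Aox1 was lower with -1.49 (SE 0.32, adjusted p = 0.0228). The endoplasmic reticulum stress list had a median difference of -0.06 and 0 of 23 called by edgeR (6 had unadjusted p below 0.05, and DESeq2 called 0). Pink1, a kinase of mitochondrial autophagy, was the only one of 35 autophagy genes called (-0.99, SE 0.22, adjusted p = 0.0267), and Chac1, a glutathione-degrading target of the integrated stress response, the only one of 25 on its list (2.21, SE 0.51, adjusted p = 0.032).

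Some genes had like responses in both models within a stated margin. The 95% interval of the difference lay between -1 and 1 for 51 of the genes called in both responses with the same sign and a mean of at least 5 CPM. Sqstm1 (chr11:50199366-50210827), which encodes the autophagy receptor p62 that gathers ubiquitinated protein, had 375, 399 and 352 CPM in the EIIa-ctl hearts, 1207, 785 and 1258 in EIIa-tg, 446, 941 and 605 in Myh6-ctl, and 1782, 1999 and 2007 in Myh6-tg. Both transgenic groups lay above their controls without overlap, and the responses were 1.53 in EIIa and 1.54 in Myh6, with an interval of -0.79 to 0.80 for the difference. Srxn1, the sulfiredoxin that repairs oxidised peroxiredoxins, had responses of 1.97 in EIIa and 1.93 in Myh6 (interval -0.83 to 0.74). Maff, a small Maf partner of NRF2, had 1.35 in EIIa and 1.54 in Myh6 (-0.48 to 0.86), Arid5a, an RNA-binding protein of inflammation, 1.42 in EIIa and 1.56 in Myh6 (-0.71 to 1.00), and Sfrp1, a secreted Wnt antagonist, 1.20 in EIIa and 1.37 in Myh6 (-0.61 to 0.94). Cystm1, Akip1 and Tent5a completed the 8 with the largest shared response, with intervals of -0.65 to 0.98, -0.50 to 0.78 and -0.71 to 0.90. These intervals still allow differences approaching 2-fold in either direction. Notch2, the mouse gene related to the transgene, had responses of 0.24 in EIIa and 0.46 in Myh6.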

How the data were processed

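The deposited table held whole-number read counts and FPKM values per locus for 12 mouse hearts. Per the labels and the study's methods the authors made these counts and FPKM values from Illumina reads of total RNA with HISAT2 version 2.0.4 and StringTie version 2.2.1. The methods name GRCm38 and the submitters' processing notes list GRCm39 and mm10, and coordinates here are GRCm38 from GENCODE M21, matched by gene identifier. The 3135 unannotated loci (1316 tested) have no coordinates here. All 15929 loci that passed filterByExpr were fitted in edgeR 4.0.16 (quasi-likelihood test, TMM factors, 4-level group, R 4.3.3), and p-values of the difference were Benjamini-Hochberg adjusted over all of them. FPKM values served only an alternative in limma 3.58.1, with other fits in DESeq2 1.42.0, and figures used matplotlib 3.10.9. Intervals are 95% t intervals from the standard error (SE), and errors after ± are SD over 3 hearts. CPM values are scaled within this table, so a share lost by mitochondrial transcripts raises others before TMM scaling.

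Genes and 62 lists were chosen with earlier results of these data known. Named genes were, at 5 CPM or more, the 8 largest differences each way, those called in both models with opposite signs, and the 8 largest shared responses, with the 3 lowest p-values of each list and a set fixed from earlier results. Genes outside this rule are members of a list that were called, given so that each count is accounted for, or are named as chosen after their values were seen. Of the listed symbols, 12 were not matched, and some measured members are counted in their lists but not reported here by name. Same-numbered hearts of the Myh6 groups deviated together (correlations of 0.285, 0.184 and 0.173), and those of the EIIa groups did not (0.0602, -0.0704 and -0.05), so the block was added for Myh6 alone. These correlations are not independent, since deviations within a group cancel out. Replicate 1 was also the heart with Y-linked counts in every group, and its part in them was not tested.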

Additional observations from a re-analysis of the deposited data

Results flagged for a closer look

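The difference between models was tested directly for every gene, and each value here is listed because that test passed. It did so for 99 genes at the strict limits and for 624 at adjusted p below 0.05. Matrix and adhesion genes with a higher response in Myh6 were Cthrc1 (log2 difference 4.62), Ltbp2 (4.43), Col12a1 (4.24), Lox (3.82), Wisp2 (3.53), Wisp1 (3.47), Itgbl1 (3.13), Loxl3 (2.86), Col4a2 (2.48), Thbs2 (1.86) and Fbln5 (1.67). Col11a1, at 0 in all 3 Myh6-ctl hearts, had an adjusted p of 0.00386. Nox4 (4.19), Ddah1 (3.67), Actn1 (2.01) and Ace (1.81) were higher as well. Metabolic and mitochondrial genes with a lower response were Ces1d (-4.68), Fbp2 (-3.81), Cox7a1 (-2.24), Eci1 (-1.85), Cpt1b (-1.28) and the chaperonin gene Hspd1 (-1.26). Muscle and channel genes were Ky (-3.67), Myh7b (-3.65) and Kcnv2 (-3.63). Immune genes were Cxcl5 (-5.22), Ccl7 (-4.99), Mgl2 (-3.78), Ccl2 (-3.73), Cbr2 (-2.28) and Coro1a (-1.36). The remaining 4 were Esr1 (-10.23), B3galt2 (-4.57), Efnb3 (-3.90) and the matrix gene Efemp1 (-3.16). The Esr1 value comes from the Myh6-ctl hearts, as given above, and its cause was not tested.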

How the results depend on the processing

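Counts of differing genes depended on the fit. At the strict limits (99 genes) DESeq2 called 621, no filter on low counts 164, bias-adjusted quasi-likelihood 150, limma on log2(FPKM + 0.1) 54, and a threshold of adjusted p below 0.05 with the same fold limit 520. Without a filter, log2(FPKM + 1) gave 50 higher and 23 lower, and with the filter log2(FPKM + 0.1) gave 31 and 23. At adjusted p below 0.05 (624 genes) DESeq2 called 1410. The replicate number as a block within each model gave 34 and 505 genes, a block shared by both models 98 and 650, and the block in the Myh6 hearts alone, added after seeing the data, 257 and 1210. Leaving out single hearts gave 11 to 541 strict calls, with 11, 21 and 13 without EIIa-ctl replicates 1, 2 and 3, 27, 24 and 65 without EIIa-tg replicates 1, 2 and 3, and 541, 56 and 35 without Myh6-tg replicates 1, 2 and 3. It gave 293 to 1727 wider calls, with 293, 338 and 295 without the EIIa-ctl replicates, 302 and 331 without EIIa-tg replicates 1 and 2, 1727 without Myh6-tg replicate 1 and 384 without replicate 3.

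The EIIa response (227 genes) was 1467 with DESeq2, 409 with library totals, 384 with a covariate for Y-linked counts, 531 on log2(FPKM + 1) and 24 on that scale without a filter. It was 133, 100 and 1211 with the block within each model, shared, and in Myh6 alone, and 2527 in the 6 EIIa hearts alone. Leaving out single hearts gave 0 to 1467. The edgeR count was 0 without EIIa-ctl replicates 1 or 3 or EIIa-tg replicates 1 or 3 (2387, 2399, 2353 and 1979 genes at unadjusted p below 0.05), 18 without EIIa-ctl replicate 2, 783 without EIIa-tg replicate 2, 378 and 94 without Myh6-ctl replicates 1 and 3, and 1467, 23 and 21 without Myh6-tg replicates 1, 2 and 3. The Myh6 response (5049 genes) was 2805 in its 6 hearts alone. Where a heart was left out of a group of 3, the remaining pair was assumed to vary like the other groups.

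Of 83 named genes with a called difference, 41 kept the call under every alternative, 42 lost it in at least 1, and 1 of these, Ky, turned sign, at 0.12 on log2(FPKM + 1) with or without a filter. Among these, the calls of Loxl1, Podn, Usmg5, Psmd1 and Ndufaf4 were lost in 16, 15, 15, 14 and 14 of 27 alternatives. Those of C3, Adgre1, Mb and the cell cycle gene Mcm2 were lost in 12. The other reversals were of uncalled differences near 0. Srxn1 was 0.14 with library totals, 0.20 on log2(FPKM + 1) with or without a filter and 0.11 on log2(FPKM + 0.1), and Sqstm1 was -0.02 without the 13 mitochondrially encoded genes. With single hearts left out, the difference ran from -0.37 to 0.13 for Srxn1, -0.21 to 0.34 for Sqstm1, -0.10 to 0.40 for Arid5a, -0.02 to 0.41 for Maff, -0.02 to 0.55 for Cystm1, -0.02 to 0.38 for Akip1, -0.17 to 0.38 for Tent5a, -0.04 to 0.46 for Sfrp1, -0.03 to 0.60 for Notch2, -0.60 to 0.59 for Nppb, -1.60 to 0.84 for Cxcr6 and -0.12 to 0.18 for the B cell factor Ebf1. The causes of these changes were not tested. With 3 hearts a group, small differences cannot be told from 0, and genes near 3 counts have fold changes of low precision.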

Other observations

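Some genes outside the lists also had a called difference between the models. They were chosen after their values were seen, so they support no statement on the groups they belong to. Genes that tie cells to matrix had a higher response in Myh6, with 0.27 in EIIa and 1.87 in Myh6 for the integrin-linked kinase Ilk (difference 1.60, SE 0.20, adjusted p = 0.00287), 0.91 in EIIa and 2.54 in Myh6 for the fibronectin receptor subunit Itga5, 0.15 in EIIa and 1.19 in Myh6 for its partner Itgb1 and 0.23 in EIIa and 1.36 in Myh6 for Itgb5. The LIM proteins of actin filaments Pdlim1 and Pdlim7 differed by 1.18 and 1.63, and Msn, which links actin to the membrane, by 1.12. Endothelin 1, a vasoconstrictor peptide encoded by Edn1, had responses of 0.01 in EIIa and 1.97 in Myh6. Several aminoacyl-tRNA synthetase genes were higher as well, Aars by 1.07, Gars by 0.91, Nars by 0.71 and Rars by 0.70.

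On the lower side, the peroxisomal and mitochondrial isomerase Ech1 had responses of 0.21 in EIIa and -2.23 in Myh6 (difference -2.45, SE 0.35, adjusted p = 0.00425), the lipid droplet coat protein Plin5 0.15 in EIIa and -2.19 in Myh6, and the carnitine acetyltransferase Crat -0.39 in EIIa and -1.77 in Myh6. Acacb, which makes the malonyl-CoA that restrains fatty acid entry, had -0.39 in EIIa and -1.70 in Myh6. The mitochondrial carriers Slc25a34 and Slc25a42 differed by -2.20 and -1.62, and the protein import genes Tomm40l, Tomm5 and Timm21 by -1.23, -1.33 and -1.15. The interferon-induced GTPases Tgtp1 and Tgtp2, whose sequences are close enough that reads may be shared, differed by -2.63 and -2.26.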
